A study of Mus musculus with 48 samples.

Results

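Immediate early and early response genes were followed in 4 muscles of newborn mice that were wild type or knocked out for Myh3, which encodes embryonic myosin heavy chain. The list held 42 genes, matched by symbol in the deposited gene tables, where Cyr61 and Ctgf carry their older symbols. Of these, 41 were present in each of the 4 tables, among 17490 genes present in at least 1 table. The missing gene, Fosl1, was among the genes that the authors set aside for having under 10 counts in all 4 muscles. The animals were C57BL/6 at postnatal day 0, labelled MyH3delta/delta (KO here) or wild type (WT), and no other allele or agent is named for any group. Each of the 8 groups has 6 libraries (48 in all), from the diaphragm (Dia) or from a limb muscle, the gastrocnemius (Gastroc), the quadriceps (Quad) or the tibialis anterior (TA). Whole muscles were dissected and frozen, so RNA came from all cell types present. In such bulk samples fewer cells of a type and less RNA per cell cannot be told apart.

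Immediate early genes are transcribed within minutes of a stimulus, without new protein synthesis, from promoters that are already poised. Kinase signals reach them through the serum response factor, which binds the CArG box, and through CREB and ATF proteins, which bind the cAMP response element. The products are mostly short-lived transcription factors (the Fos and Jun families of AP-1, Egr, Nr4a, Klf and Cebp) and proteins that end the signal, such as Dusp1, Trib1, Errfi1 and Zfp36. In muscle the class is known to respond to contraction, stretch, injury and hormones.

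Libraries held 11877757 to 24337406 counts. A library is called here by its genotype and its column, numbered 0 to 5 within a group, because the sources do not tie a column to an animal or a replicate number. Myh3 itself averaged 4629 ± 610 CPM (counts scaled to the library total) in KO Quad and 4638 ± 660 CPM in WT Quad (SD, n = 6 each). Its counts cover the whole gene and the labels do not say which part was deleted, so they check no library's genotype, and KO and WT stand for the labels throughout. The 6 muscle genes Myh3, Myh8, Myl1, Des, Ckm and Tnnt3 together made 39010 to 73870 CPM in KO libraries and 32700 to 71620 CPM in WT libraries, across the muscles. KO columns 0 and 1 carried liver transcripts: the 4 liver markers tested in Quad summed to 39.8 and 67.4 CPM there, against 0.790 to 15.6 CPM in WT Quad. In Dia the 6 liver markers summed to 5089 and 8111 CPM in these columns, against 295 to 4529 CPM in WT Dia. The median sum was 2207 CPM in KO Dia and 1758 CPM in WT Dia, so liver transcripts in Dia were not confined to these columns.

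Promoter windows were searched for the cAMP response element, a known element of the class. Sequence is shown for the members that hold the full element and for Nr4a1, Nr4a3 and Cebpb. The display was thus not picked by the results alone: Dusp1, which is shown, was called in no muscle. RefSeq windows of 250 bases before to 50 after a gene start (assembly GRCm38.p6) were found for 33 of the 42 genes, in 48 windows. Not matched were Fosl1, Egr1, Egr3, Ier2, Klf10, Ctgf, Myc, Trib1 and Cebpd. The palindromic element TGACGTCA, searched on both strands, was in 5 of these 48 windows, 1 each for Btg2, Maff, Arl4d, Dusp1 and Errfi1, and in 1.79% of all 32851 windows. Its 5-base core, TGACG or CGTCA, was in 26 of the 48 windows, from 20 genes, and in 20.8% of all windows. Each full element also counts as overlapping cores. Capitals mark TGACG or CGTCA in the lines that follow, each read 5′ to 3′ on the strand of the gene and ending at or before the RefSeq start used. That start can differ from the gene start in the deposited tables: for Errfi1, which has 2 windows, it lies 1151 bases downstream of the deposited start, so that the printed bases are inside the deposited gene, and for Nr4a3 152 bases downstream. The full elements lie in 60 bases at chr1:134079288-134079347 (minus strand) for Btg2, chr15:79347460-79347519 (plus) for Maff, chr11:101665481-101665540 (plus) for Arl4d, chr17:26508582-26508641 (minus) for Dusp1 and chr4:150854993-150855052 (plus) for Errfi1.
Btg2: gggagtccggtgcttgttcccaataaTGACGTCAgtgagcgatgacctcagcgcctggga
Maff: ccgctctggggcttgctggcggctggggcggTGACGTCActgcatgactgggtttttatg
Arl4d: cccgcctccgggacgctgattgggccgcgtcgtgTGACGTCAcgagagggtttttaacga
Dusp1: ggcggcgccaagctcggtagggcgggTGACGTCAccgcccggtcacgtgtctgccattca
Errfi1: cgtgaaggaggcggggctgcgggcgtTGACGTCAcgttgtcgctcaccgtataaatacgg

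The Nr4a genes, which encode orphan nuclear receptors, hold several of these cores: at least 4 were in 3 of the 48 windows, 1 each for Nr4a1, Nr4a2 and Nr4a3, and in 0.231% of all windows. Cebpb, called in Gastroc, holds 3 cores and no full element. The 250 bases before the start are given for Nr4a1 (chr15:101266596-101266845, plus strand), for Nr4a3 (chr4:48045055-48045304, plus strand) and for Cebpb (chr2:167688665-167688914, plus strand).
Nr4a1: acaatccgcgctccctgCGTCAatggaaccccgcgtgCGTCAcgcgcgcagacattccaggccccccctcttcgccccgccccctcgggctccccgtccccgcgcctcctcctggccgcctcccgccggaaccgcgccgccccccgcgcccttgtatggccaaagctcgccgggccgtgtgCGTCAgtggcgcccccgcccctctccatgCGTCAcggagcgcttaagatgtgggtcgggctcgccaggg
Nr4a3: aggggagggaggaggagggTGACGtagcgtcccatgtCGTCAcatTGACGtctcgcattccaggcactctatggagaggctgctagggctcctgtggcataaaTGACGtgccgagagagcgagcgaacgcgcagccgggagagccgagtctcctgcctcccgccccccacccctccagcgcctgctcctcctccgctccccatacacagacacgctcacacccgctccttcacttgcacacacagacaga
Cebpb: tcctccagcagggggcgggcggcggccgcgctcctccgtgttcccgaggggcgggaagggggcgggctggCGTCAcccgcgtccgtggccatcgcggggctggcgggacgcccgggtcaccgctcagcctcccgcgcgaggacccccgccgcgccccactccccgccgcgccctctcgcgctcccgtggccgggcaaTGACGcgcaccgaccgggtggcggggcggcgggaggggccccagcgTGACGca

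The AP-1 site TGANTCA was in 2 of the 48 windows, from Csrnp1 and Zfp36l1, and in 7.81% of all windows. The CArG box was in 5 of the 48, from Egr2 and Zfp36, and in 1.63% of all windows. A match describes the letters of a window and is neither a site in use nor a cause, and the windows say nothing of elements farther away.

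In KO muscle against WT muscle the members leaned to higher levels in each of the 4 muscles. The log2 change, KO over WT, was above 0 for 39 of 41 members tested in Quad, 34 of 41 in TA, 37 of 41 in Gastroc and 37 of 40 in Dia, beside 53.1%, 52.1%, 52.2% and 53.4% of all genes tested in those muscles. The median log2 change over the members was 0.42 in Quad, 0.28 in TA, 0.34 in Gastroc and 0.43 in Dia, where the median over all genes was 0.0095, 0.0068, 0.0069 and 0.010. Of the 40 members tested in all 4 muscles 32 were above 0 in all 4, beside 23.7% of all genes, and Klf10 alone was below 0 in all 4. Egr3 was not tested in Dia, where it did not pass the filter on low counts.

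Single members seldom passed the test within a muscle. By edgeR's quasi-likelihood test with Benjamini-Hochberg adjustment over all genes, at an adjusted p of 0.05, no member was called in Quad (0% of all genes called higher), TA (0.0556%) or Dia (0.0069%). In Gastroc 2 members were called, both higher (0.144% of all genes), Trib1 and Cebpb. No member was called lower, beside 0% of all genes in Quad and Dia, 0.0417% in TA and 0.0137% in Gastroc. At an unadjusted p of 0.05 the members higher in KO numbered 25 in Quad (5% of all genes), 15 in TA (4.84%), 25 in Gastroc (4.29%) and 20 in Dia (2.61%). No member was lower at that level, beside 1.94%, 2.75%, 2.41% and 1.56% of all genes in Quad, TA, Gastroc and Dia. The authors' deposited table, made with another tool, has 4, 3, 5 and 6 members at an adjusted p under 0.05 in Quad, TA, Gastroc and Dia, all higher in KO, where 0.342%, 0.455%, 0.435% and 0.132% of its genes are higher at that level.

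**Figure D1:**
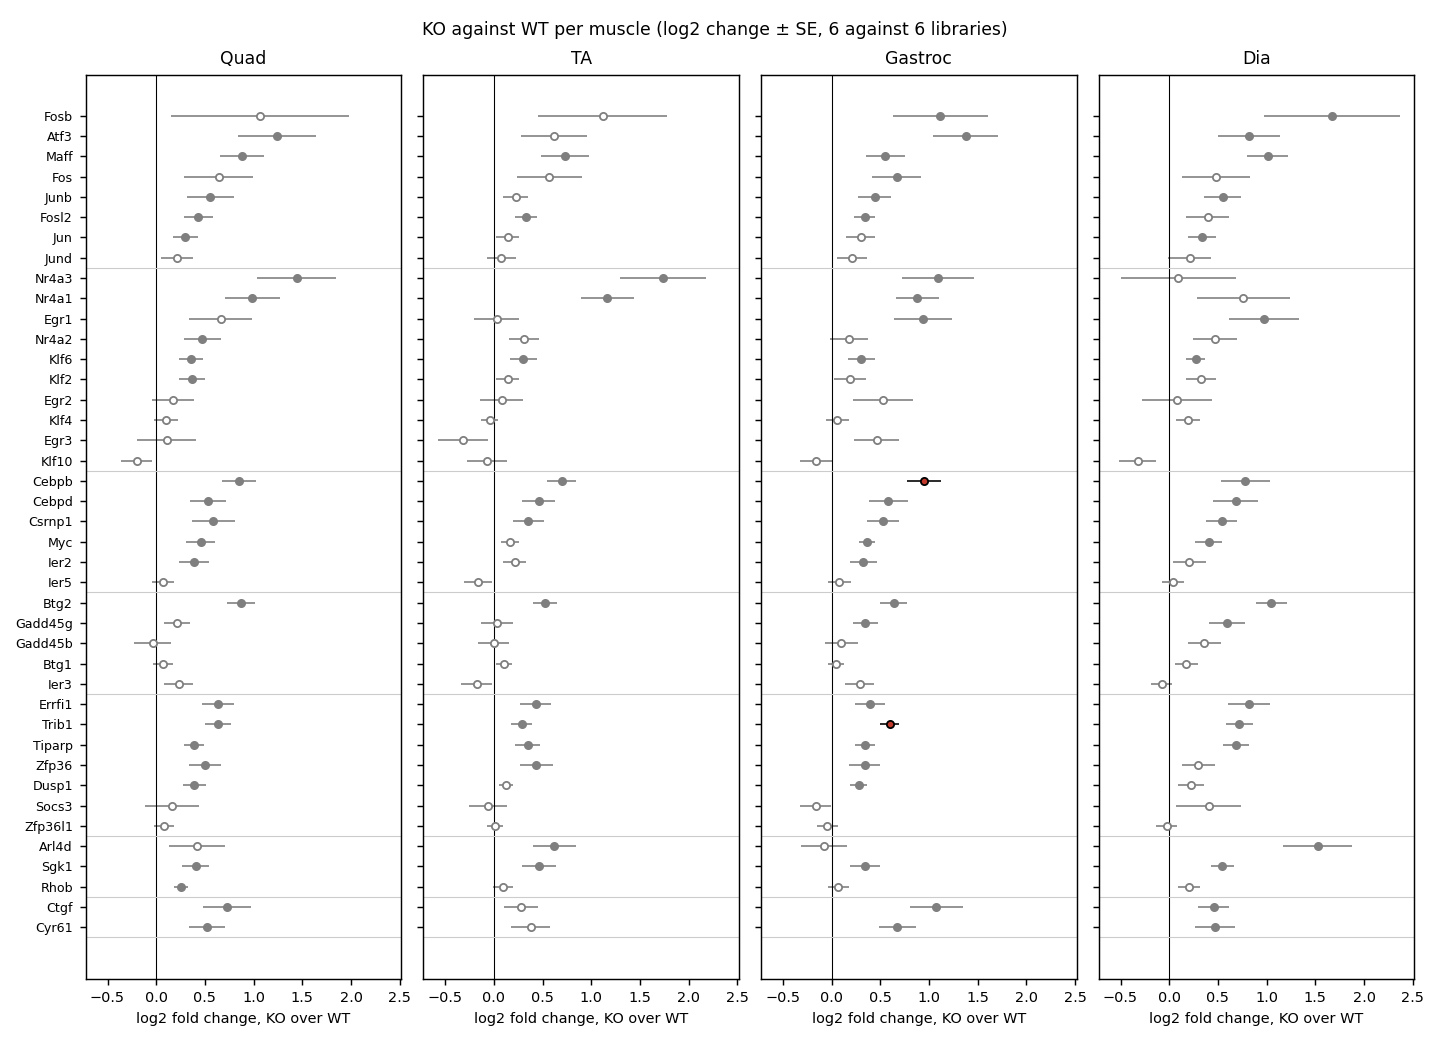
The log2 change of each member, KO over WT, on the x axis in the 4 muscles, ± its standard error from edgeR (6 KO against 6 WT libraries); red points passed the adjusted p, grey filled points an unadjusted p of 0.05, open points neither, and grey lines part the groups of genes by role. Most points lie right of 0 in all 4 panels, only Trib1 and Cebpb in Gastroc are red, and Fosb has the widest bar in each panel and Nr4a3 the next.

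Among proteins that end or limit the signal, Trib1, a pseudokinase that directs transcription factors to degradation, had the firmest difference within 1 muscle. In Gastroc the 6 KO libraries had 31.5, 38.3 and 41.8 CPM (lowest, median and highest), against 21.0, 24.9 and 27.2 CPM in WT. The groups did not overlap, as in 0.383% of all genes of Gastroc with KO above WT, and the log2 change was 0.60 ± 0.10 (SE; edgeR adjusted p = 0.0186). In Quad Trib1 had 35.8, 50.2 and 61.5 CPM in KO and 26.8, 30.0 and 43.3 CPM in WT (log2 change 0.64 ± 0.13, edgeR adjusted p = 0.143), and the groups overlapped. In Dia it had 32.2, 55.7 and 64.0 CPM in KO and 29.3, 31.4 and 34.7 CPM in WT (0.72 ± 0.14, edgeR adjusted p = 0.253), where 1 KO library, column 4, lay inside the WT range. In TA the log2 change was 0.28 ± 0.11 (edgeR adjusted p = 0.495). The Gastroc call of Trib1 remained in 6 of the 12 fits that left out 1 library, with adjusted p between 0.0178 and 0.0594.

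Tiparp, a mono-ADP-ribosyltransferase, had 38.4, 45.6 and 67.7 CPM in KO Dia, against 24.7, 30.7 and 32.8 CPM in WT Dia, with no overlap (0.131% of all genes of Dia, KO above WT). Its log2 change there was 0.69 ± 0.13 (edgeR adjusted p = 0.253). In Gastroc its groups did not overlap either, with 30.8 to 43.5 CPM in KO and 22.3 to 30.5 CPM in WT (0.34 ± 0.10, edgeR adjusted p = 0.360). Errfi1, an inhibitor of the EGF receptor, had its largest value in Dia, with 108, 147 and 247 CPM in KO and 58.2, 87.2 and 122 CPM in WT (0.82 ± 0.22, edgeR adjusted p = 0.682), and the groups overlapped. Dusp1, the phosphatase of stress-activated kinases, had log2 changes of 0.12 to 0.39 in the 4 muscles, and Zfp36, which speeds decay of AU-rich mRNAs, of 0.30 to 0.50. Zfp36l1, its relative, lay between -0.04 and 0.08, and Socs3, a brake on cytokine signalling, between -0.16 and 0.41.

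Btg2, an antiproliferative cofactor of mRNA deadenylation, had the smallest p of all members in Quad and Dia. Dia KO libraries had 69.9, 89.2 and 118 CPM, against 30.9, 43.2 and 53.2 CPM in WT Dia, with no overlap, and the log2 change was 1.05 ± 0.16 (edgeR adjusted p = 0.0635). In Quad it had 36.8, 57.1 and 66.2 CPM in KO and 22.1, 27.9 and 39.2 CPM in WT (0.87 ± 0.14, edgeR adjusted p = 0.0568), and only KO column 4 lay within the WT range. The gene was close to the threshold: without KO columns 0 and 1 its edgeR adjusted p was 0.0368 in Quad, 0.0537 in TA, 0.00227 in Gastroc and 0.0294 in Dia. Those fits called 133, 219, 108 and 72 genes in all, in the same order, where the main fits called 0, 14, 23 and 1. The log2 change of Btg2 in Quad stayed at 0.87. In TA it had 28.0 to 53.5 CPM in KO and 24.6 to 29.8 CPM in WT (0.53 ± 0.13, edgeR adjusted p = 0.160). In Gastroc it had 21.0 to 38.8 CPM in KO and 16.6 to 22.5 CPM in WT (0.64 ± 0.14, edgeR adjusted p = 0.111). The other growth arrest and stress genes moved less: Btg1, a relative of Btg2, lay between 0.05 and 0.18, Gadd45b between -0.04 and 0.36, and Gadd45g between 0.03 and 0.59 on the log2 scale. Ier3, a survival factor, had log2 changes of 0.23 in Quad, -0.18 in TA, 0.29 in Gastroc and -0.08 in Dia.

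Among the other transcription factors Cebpb, a bZIP factor of the acute phase and of muscle precursors, had 18.2, 22.0 and 41.4 CPM in KO Gastroc, against 11.1, 12.9 and 13.8 CPM in WT Gastroc. The groups did not overlap, and the log2 change was 0.95 ± 0.17 (edgeR adjusted p = 0.0363). KO column 3 stood above the rest at 41.4 CPM, and without it the call remained. Leaving out 1 library at a time, the call of Cebpb remained in 4 of 12 fits, with adjusted p between 0.0195 and 0.110. In Quad it had 23.8, 31.6 and 53.9 CPM in KO and 15.3, 19.1 and 25.9 CPM in WT (0.85 ± 0.17, edgeR adjusted p = 0.121). In TA it had 18.5, 25.1 and 34.2 CPM in KO and 13.7, 15.04 and 20.5 CPM in WT (0.70 ± 0.15, edgeR adjusted p = 0.127). In both muscles 1 KO library, column 5, lay inside the WT range. In Dia it had 40.2, 48.4 and 116 CPM in KO and 23.2, 32.6 and 47.2 CPM in WT (0.78 ± 0.25, edgeR adjusted p = 0.878), with overlap.

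Cebpd, its relative, had log2 changes of 0.46 to 0.68 in the 4 muscles. Csrnp1, an AXIN1-induced nuclear factor, had 0.35 to 0.59. Myc, the growth-promoting factor, had 32.1, 34.2 and 38.8 CPM in KO Gastroc and 25.02, 26.4 and 31.2 CPM in WT Gastroc (0.36 ± 0.08, edgeR adjusted p = 0.145), without overlap. In Quad and Dia the log2 change of Myc was 0.46 and 0.41, and in TA 0.16. Ier2 lay between 0.21 and 0.39, and Ier5 between -0.16 and 0.08.

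The AP-1 genes tested, 8 of 9, were above 0 in all 4 muscles, with group medians of 0.60 in Quad, 0.45 in TA, 0.50 in Gastroc and 0.51 in Dia. Maff, a small Maf protein that pairs with other bZIP factors, had 15.1, 17.6 and 27.7 CPM in KO Dia, against 6.996, 9.18 and 13.5 CPM in WT Dia. These did not overlap (log2 change 1.01 ± 0.21, edgeR adjusted p = 0.309). Atf3, a stress-induced bZIP factor, had 7.50, 22.1 and 43.7 CPM in KO Gastroc and 5.39, 9.65 and 12.005 CPM in WT Gastroc (1.38 ± 0.33, edgeR adjusted p = 0.167). In Quad Atf3 had 19.1, 43.8 and 94.0 CPM in KO and 9.20, 22.6 and 37.2 CPM in WT (1.24 ± 0.40, edgeR adjusted p = 0.472). Its KO libraries spread widely, and its groups overlapped in both muscles. Fosb, which has log2 changes of 1.07 to 1.67, had standard errors of 0.49 to 0.91, and Fos had 0.48 to 0.67 with standard errors of 0.25 to 0.35. Junb lay between 0.22 and 0.56, Fosl2 between 0.33 and 0.43, Jun between 0.14 and 0.34, and Jund, the member of the family least dependent on stimuli, between 0.08 and 0.21.

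The nuclear receptors Nr4a1 and Nr4a3 had large values in the limb muscles. Nr4a3 had 2.76, 6.47 and 24.6 CPM in KO TA and 1.89, 2.29 and 4.20 CPM in WT TA (log2 change 1.74 ± 0.44, edgeR adjusted p = 0.201). In Quad it had 5.54, 10.7 and 22.3 CPM in KO and 1.51, 4.57 and 7.94 CPM in WT (1.44 ± 0.41, edgeR adjusted p = 0.358), and in Gastroc the log2 change was 1.09 ± 0.37 (edgeR adjusted p = 0.503). Every KO library lay above the WT median in these 3 muscles, with overlap of the ranges. In Dia its log2 change was 0.09 ± 0.59 (edgeR adjusted p = 1), with 1.82 to 18.1 CPM in KO and 2.48 to 26.2 CPM in WT. Nr4a1 had 42.8, 86.3 and 159 CPM in KO TA and 30.8, 42.02 and 65.5 CPM in WT TA (1.16 ± 0.27, edgeR adjusted p = 0.152). Its log2 change was 0.99 in Quad, 0.88 in Gastroc and 0.76 in Dia, with a value of 0.06 in Dia once KO columns 0 and 1 were left out. Nr4a2 lay between 0.18 and 0.47.

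Of the zinc finger factors, Egr1 had log2 changes of 0.66 in Quad, 0.03 in TA, 0.94 in Gastroc and 0.97 in Dia. Egr2 lay between 0.08 and 0.53, and Egr3 had 0.11 in Quad, -0.32 in TA and 0.46 in Gastroc. Among Krüppel-like factors Klf6 lay between 0.27 and 0.35, Klf2, known from endothelium under flow, between 0.14 and 0.36, and Klf4 between -0.04 and 0.20. Klf10, a TGF-beta-induced repressor, had -0.20 in Quad, -0.07 in TA, -0.16 in Gastroc and -0.32 in Dia, with edgeR adjusted p of 0.935 or more.

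Arl4d, a small GTPase, was low in limb muscle and high in Dia, where KO libraries had 10.6, 14.8 and 45.7 CPM and WT libraries 4.67, 5.75 and 10.4 CPM. The groups did not overlap there, and the log2 change was 1.52 ± 0.35 (edgeR adjusted p = 0.443). It was 0.42 in Quad, 0.62 in TA and -0.08 in Gastroc. Sgk1, a kinase induced by serum and glucocorticoids, had 219, 252 and 303 CPM in KO Dia and 131, 171 and 223 CPM in WT Dia (0.54 ± 0.12, edgeR adjusted p = 0.370), with slight overlap. Its log2 change in the limb muscles was 0.34 to 0.47. Rhob, a small GTPase of endosomes, lay between 0.07 and 0.26.

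The secreted matricellular proteins Ctgf and Cyr61, targets of YAP and of the serum response factor, were among the most abundant members. Ctgf had 77.3, 153 and 233 CPM in KO Gastroc and 40.6, 72.8 and 129 CPM in WT Gastroc (log2 change 1.08 ± 0.27, edgeR adjusted p = 0.202). In Quad it had 157, 285 and 305 CPM in KO and 58.8, 159 and 229 CPM in WT (0.73 ± 0.24, edgeR adjusted p = 0.488). The groups overlapped in both muscles. Its log2 change was 0.28 in TA and 0.46 in Dia, and that of Cyr61 was 0.52 in Quad, 0.38 in TA, 0.68 in Gastroc and 0.47 in Dia.

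**Figure D2:**
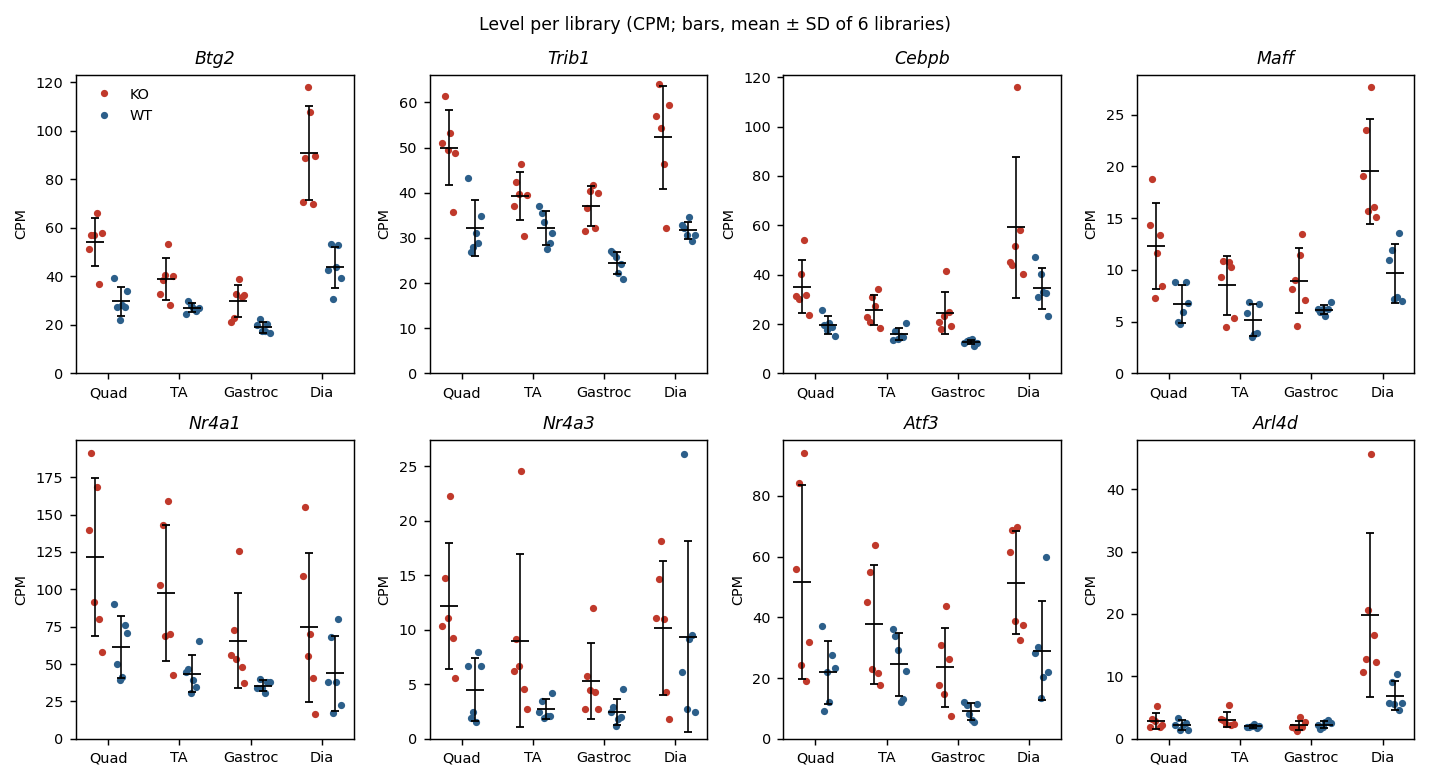
CPM of 8 members in every library on linear axes from 0, with KO (red) left of WT (blue) in each muscle, ordered by column number within a group; bars give the mean ± SD of 6 libraries. KO and WT are apart for Trib1 and Cebpb in Gastroc and for Btg2, Maff and Arl4d in Dia, while Nr4a1, Nr4a3 and Atf3 overlap in every muscle.

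Across the muscles, 1 fit of all 48 libraries with muscle as a term asked which members differ by genotype on average. It called 29 of 41 members, all higher in KO, beside 4.99% of all genes called higher and 2.66% called lower by edgeR's quasi-likelihood test. That fit treats the libraries as independent. With genotype and column number as a correlated block (limma voom, estimated correlation 0.38) 7 members were called, Btg2, Trib1, Cebpb, Tiparp, Maff, Errfi1 and Arl4d, beside 0.308% of all genes called higher. With counts of the 4 muscles summed per column number, 6 against 6, Btg2 (log2 change 0.82, edgeR adjusted p = 0.0400) and Trib1 (0.56, edgeR adjusted p = 0.0494) were called, beside 0.0593% of all genes called higher. The labels do not state whether the muscles of a column came from 1 animal. Of the 7 members, 6 have a RefSeq window, since Trib1 has none. The full element printed above is in windows of Btg2, Maff, Errfi1 and Arl4d, and not in those of Cebpb or Tiparp. These 4 are among the 5 members that hold it, of 33 with a window. Maff holds it in 1 of 3 windows and Errfi1 in 1 of 2. No relation between the element and the calls was tested.

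By role the independent fit called 7 of 8 AP-1 genes, 6 of 10 zinc finger and nuclear receptor factors, 5 of 6 other factors, 2 of 5 growth arrest genes, 5 of 7 feedback genes, 2 of 3 kinase and GTPase genes and both secreted proteins, beside the 4.99% of all genes. With the correlated block these became 1 AP-1 gene, 0 zinc finger and nuclear receptor factors, 1 other factor, 1 growth arrest gene, 3 feedback genes, 1 GTPase and 0 secreted proteins, beside 0.308% of all genes. The log2 changes of the independent fit were 0.77 ± 0.08 for Btg2, 0.56 ± 0.07 for Trib1, 0.82 ± 0.10 for Cebpb and 0.44 ± 0.06 for Tiparp. Its uncalled members were Rhob, Klf10, Btg1, Jund, Egr2, Klf4, Gadd45b, Ier3, Socs3, Egr3, Zfp36l1 and Ier5, with values from -0.19 for Klf10 to 0.23 for Egr2. No member passed the edgeR test of a genotype effect that differs between muscles, beside 0.0133% of all genes. The smallest p there was 0.00337, for Arl4d (adjusted p = 1), the 1 member of 41 under an unadjusted 0.05, beside 1.67% of all genes, and DESeq2 called none either.

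The level of the members as a set differed from library to library. Taking the median over the members of log2 CPM minus the WT mean of the muscle, all 24 KO libraries were above 0 (0.0873 to 0.699), and the 24 WT libraries ran from -0.329 to 0.342, with 13 above 0. KO column 3 had 0.578 in Quad, 0.458 in TA, 0.699 in Gastroc and 0.613 in Dia. KO column 5 had 0.125, 0.0873, 0.217 and 0.175 in the same order of muscles. Column 3 was thus among the 2 highest KO libraries of each muscle and column 5 among the 2 lowest. In WT the order was not kept: column 4 was the highest in Dia, at 0.299, and the lowest in Gastroc, at -0.157.

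**Figure D3:**
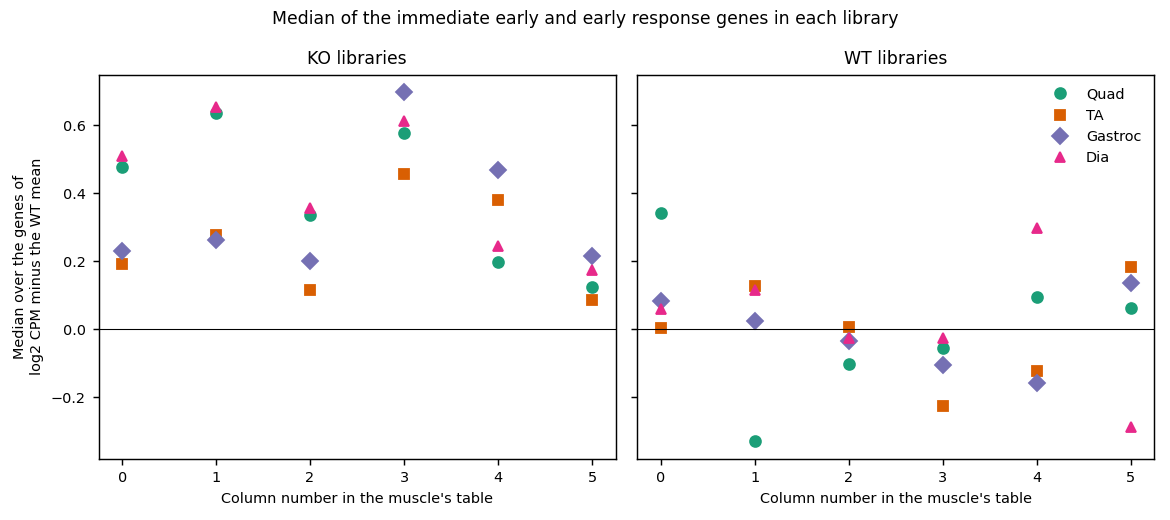
The y axis gives the median over the members of log2 CPM minus the WT mean of the same muscle, and the x axis the column number, with 1 symbol per muscle, KO at left and WT at right. All KO symbols lie above 0, with column 3 at 0.458 to 0.699 and column 5 at 0.0873 to 0.217, while WT symbols lie on both sides of 0.

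Individual members followed different KO columns, a pattern chosen for description after the values were seen. Socs3 was highest in KO columns 0 and 1 in all 4 muscles. In Dia it had 45.8 and 38.0 CPM in them, 12.4 to 16.4 CPM in the other KO libraries and 12.9 to 26.7 CPM in WT. In Quad these columns had 40.5 and 36.0 CPM, the other KO libraries 13.9 to 16.6 CPM and WT 16.4 to 30.2 CPM. Errfi1 showed the reverse order, with columns 0 and 1 the lowest of the KO libraries in every muscle. In Quad it had 51.6 and 55.1 CPM in columns 0 and 1, 68.9 to 107 CPM in the other KO libraries and 36.0 to 58.7 CPM in WT. Fosb was highest in the same columns in Quad, with 26.7 and 40.8 CPM in columns 0 and 1 and 0.856 to 3.05 CPM in the other KO libraries, against 0.903 to 19.9 CPM in WT. The same 2 columns lay above all WT libraries in summed liver markers in Quad and Dia. The part of liver transcripts in these values was not tested. Without these 2 columns the median over the members was 0.31 in Quad, 0.28 in TA, 0.45 in Gastroc and 0.27 in Dia.

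**Figure D4:**
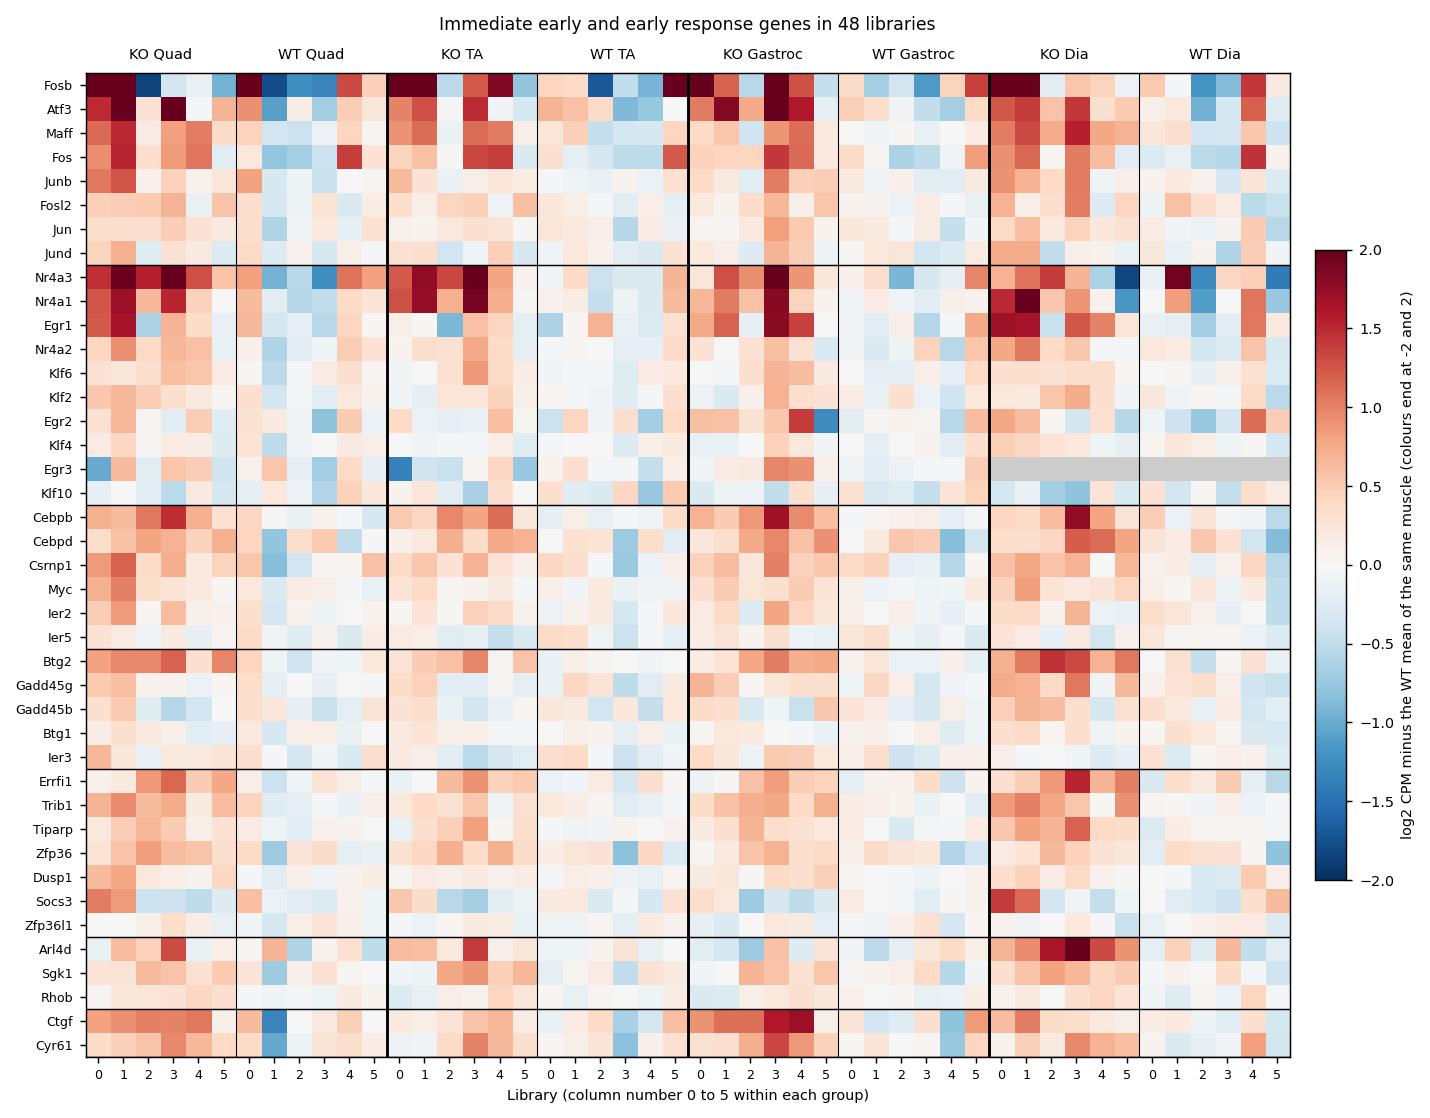
Log2 CPM minus the WT mean of the muscle for 41 members (rows, grouped by role) in 48 libraries (columns, KO left of WT in each muscle), with red above and blue below the WT mean, colours ending at 2 and -2 and grey where Egr3 was not tested. KO blocks are redder than WT blocks in all 4 muscles, red of Socs3 is in columns 0 and 1 of KO and that of Errfi1 mostly in columns 2 to 5, while Fosb is red in KO columns 0 and 1 of all 4 muscles and also in columns 3 and 4 of TA and Gastroc.

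The members varied more between libraries of a group than most genes. Their edgeR dispersion lay at a median percentile of 75.1 in Quad, 71.4 in TA, 72.1 in Gastroc and 66.9 in Dia among all genes tested. Above the 90th percentile lay 13, 7, 8 and 9 members in these muscles, beside 10% of all genes in each.

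Between WT muscles the members also differed, mostly towards higher levels in Dia. By length-scaled level (RPKM, mean of 6 WT libraries) the most abundant members in WT Quad were Cyr61 (82.1), Jund (64.3), Ctgf (56.8), Zfp36l1 (43.1) and Rhob (42.4), and the least were Egr3 (0.864) and Nr4a3 (0.769). Dia against the mean of the 3 limb muscles gave 25 of 40 members called by edgeR with Egr3 set aside, 20 higher (29.9% of all genes) and 5 lower (27.2%), so that a call in this comparison was common among all genes. Egr3 passed the filter on low counts through the limb muscles alone, where it is higher, so its difference is given as levels: 0.247 RPKM in WT Dia and 0.864, 1.51 and 0.943 RPKM in WT Quad, TA and Gastroc. Arl4d had 5.29 RPKM in WT Dia and 1.599, 1.595 and 1.612 RPKM in WT Quad, TA and Gastroc (log2 difference, Dia minus limb, 1.73 ± 0.16, edgeR adjusted p = 1.97e-09). Cebpb had 24.4 RPKM in Dia and 13.3, 11.7 and 8.30 RPKM in the limb muscles in that order (1.17 ± 0.10, edgeR adjusted p = 6.65e-10). Dusp1 (0.81 ± 0.08), Btg2 (0.86 ± 0.10) and Klf2 (0.91 ± 0.11) were higher in Dia too. The 5 lower members were Egr2 (-1.22 ± 0.25), Btg1, Myc, Gadd45g and Nr4a2. At a difference of at least 2-fold 1 of the 25 was called, Arl4d, higher.

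Among WT limb muscles most members that differed were lower in Gastroc. TA against Gastroc gave 14 members called by edgeR, 13 higher in TA (11.5% of all genes) and Zfp36l1 lower (7.32%). Quad against Gastroc gave 13, all higher in Quad (9.31%) and none lower (5.27%), and Quad against TA gave none (0.863% higher and 1.20% lower over all genes). Atf3 was higher in TA than in Gastroc by 1.604 ± 0.36 on the log2 scale (edgeR adjusted p = 0.00203) and in Quad than in Gastroc by 1.32 ± 0.36 (edgeR adjusted p = 0.0127). Btg2 was higher by 0.67 ± 0.13 and 0.69 ± 0.13 and Trib1 by 0.57 ± 0.10 and 0.45 ± 0.10 in the same comparisons, which share the Gastroc libraries. Without column 2 in all muscles 7 members were called between TA and Gastroc, and without column 0 6 were called between Quad and Gastroc. The shares of all genes called in these fits are not given here, so a change particular to the members cannot be read from them.

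**Figure D5:**
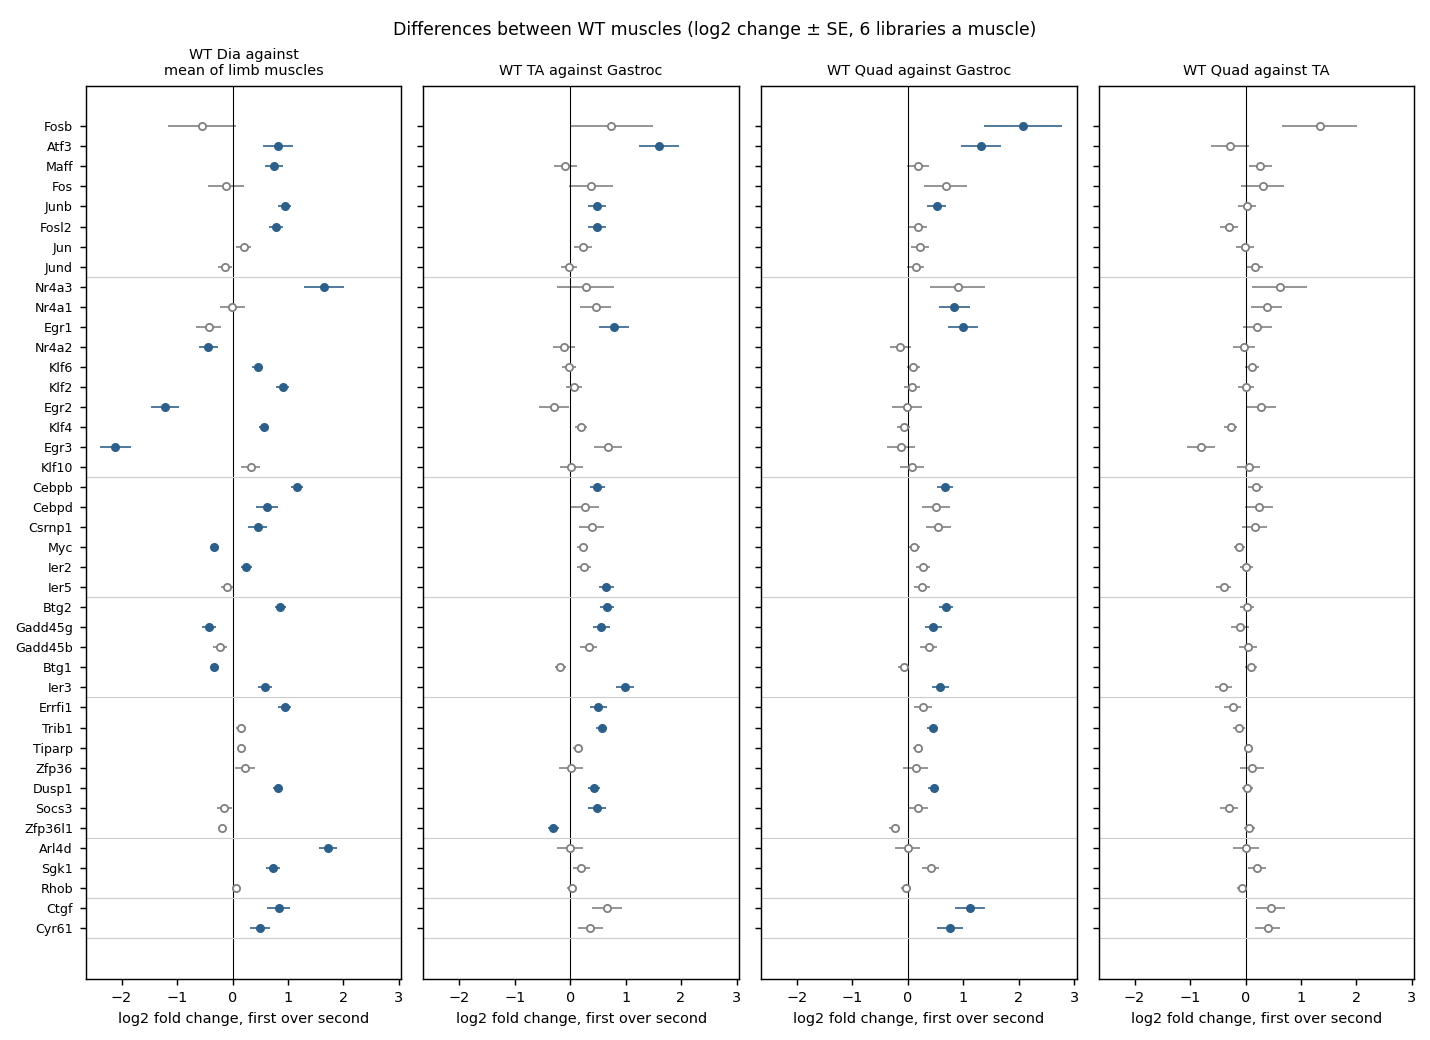
The log2 difference of each member between WT muscles (x axis, first muscle over second, ± its standard error from edgeR, 6 libraries a muscle), with filled points past an adjusted p of 0.05. Dia lies above the limb muscles for 26 of 41 members and below them for 15, Egr3 and Egr2 farthest, TA and Quad lie mostly above Gastroc, and no point is filled for Quad against TA.

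Other genes of the pathway were read from lists. The 26 upstream regulators, which include serum response factor partners and CREB family genes, had no call by edgeR in any muscle or in the fit of 48 libraries (5 at an unadjusted p under 0.05 there, 1 higher and 4 lower) and none with the correlated block, but 6 without KO columns 0 and 1, 4 higher and 2 lower. Their median log2 change was 0.01 in Quad, -0.03 in TA, -0.03 in Gastroc and -0.0029 in Dia. Of 9 ERK feedback genes outside the members the fit of 48 libraries called Dusp5, an ERK phosphatase, higher (0.70 ± 0.13, edgeR adjusted p = 0.000450). Over all genes that fit called 4.99% higher and 2.66% lower, shares that also stand beside the lists that follow. A single call in a list of this size is not read as a result about the list. Of 14 secondary response genes 10 were tested in that fit, and Plaur, the urokinase receptor, was higher (0.34 ± 0.10, edgeR adjusted p = 0.0360) and Hmox1, heme oxygenase, lower (-0.35 ± 0.11, edgeR adjusted p = 0.0361). Of 11 YAP and serum response factor targets Ankrd1, a stretch-responsive muscle protein, was higher (0.89 ± 0.19, edgeR adjusted p = 0.00169), and Actb and Ajuba were lower (-0.18 and -0.19). Of 8 heat shock genes Hsph1, Bag3 and Hspb1 were higher (0.35, 0.21 and 0.33). With the correlated block 1 of these genes was called, Hsph1, and with summed counts none. Without KO columns 0 and 1 Plaur (edgeR adjusted p = 0.132) and Hmox1 (edgeR adjusted p = 0.255) were not called. Ccl2 and Vegfa of the secondary response list were called lower in that fit. It called 2 ERK feedback genes higher and 1 lower (Dusp5, Dusp6 and Spred2). Of the YAP and serum response factor targets it called 2 higher and 4 lower (Actb, Actg1, Ajuba, Ankrd1, Fhl2 and Myl9). Its upstream regulators were Creb1, Map2k1, Nfkb1, Rps6ka1, Rps6ka5 and Yap1, and the heat shock calls remained. The share of all genes called in that fit is not given here. Leaving out these columns raised the calls over all genes within each muscle. The counts of that fit are therefore not read as results about the lists.

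Of 12 genes known to rise with glucocorticoids or low insulin, 12 were above 0 in each muscle and 10 were called higher in the fit of 48 libraries, beside 4.99% of all genes, and none lower (2.66%), with a median log2 change of 0.55. With the correlated block 2 were called, Foxo1 and Klf15, beside 0.308% of all genes, and with counts summed per column number none, beside 0.0593%. Within single muscles none of the 12 was called by edgeR, where 10, 9, 8 and 5 were higher at an unadjusted p under 0.05 in Quad, TA, Gastroc and Dia.

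KO columns 0 and 1 stood apart for these 12 genes too. In Dia they summed to 2222 and 2594 CPM there and to 4649 to 7591 CPM in the other KO libraries, against 3017 to 4463 CPM in WT. In Quad the sums were 1846 and 1985 CPM in KO columns 0 and 1 and 2640 to 3162 CPM in the other KO libraries, against 1480 to 2419 CPM in WT. These 2 columns thus lay below all WT libraries in Dia and within the WT range in Quad. Without them 12 of the 12 were called higher in the independent fit and the median log2 change was 0.81. These columns were the lowest KO libraries for the list, so a rise on leaving them out was fixed in advance. The share of all genes called in that fit is not given here. Within Quad, TA, Gastroc and Dia leaving them out gave 133, 219, 108 and 72 calls over all genes, where the main fits gave 0, 14, 23 and 1. Examples from the independent fit are Fkbp5, a glucocorticoid receptor co-chaperone (0.94 ± 0.20, edgeR adjusted p = 0.00191, limma adjusted p = 0.118 with the correlated block), Trim63, a muscle ubiquitin ligase (0.91 ± 0.16, edgeR adjusted p = 0.000126, limma adjusted p = 0.0838 with the block), and Klf15, a factor of fasting metabolism (0.89 ± 0.15, edgeR adjusted p = 0.000101, limma adjusted p = 0.0318 with the block). Sgk1, Cebpb and Cebpd are examples of members that glucocorticoids are also known to induce. With the block Cebpb was called, and Sgk1 and Cebpd were not (limma adjusted p = 0.106 and 0.0866). Any part of glucocorticoids in the values of the members was not tested.

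The summed markers of the 14 lists, muscle included, overlapped between the genotypes in 55 of 56 pairs of list and muscle. The exception was the list of satellite cells and myoblasts in Dia, which summed to 325 to 387 CPM in KO and 281 to 315 CPM in WT. KO lay above all WT libraries in 0.367%, 0.396%, 0.383% and 0.131% of all genes in Quad, TA, Gastroc and Dia. KO lay below all WT libraries in 0.136%, 0.264%, 0.151% and 0.117%, in the same order. Overlap is thus usual for any gene and does not show equal amounts of a cell type. The 6 endothelial markers summed to 572 to 833 CPM in KO libraries and 644 to 905 CPM in WT libraries across the muscles, and Cldn5, Cdh5 and Tek were lower in the fit of 48 libraries. Median endothelial sums in KO and WT were 632.8 and 681.8 CPM in Quad and 647.5 and 688.5 CPM in TA. In Gastroc they were 604.3 and 718.7 CPM, and in Dia 798.5 and 840.1 CPM. The 5 macrophage markers tested summed to 108 to 208 CPM in KO libraries and 121 to 198 CPM in WT libraries, with Cd14 higher, Csf1r lower and Adgre1 not tested. The 4 neutrophil markers tested in Gastroc, where Trib1 and Cebpb were called, were higher at an unadjusted p under 0.05 (median log2 change 1.00, none called by edgeR), with sums of 3.59 to 14.7 CPM in KO and 3.16 to 6.998 CPM in WT. KO columns 0 and 1 had the highest sums there, at 14.7 and 13.8 CPM, and also in Quad (14.8 and 14.96 CPM, against 3.56 to 9.03 CPM in WT) and TA (14.1 and 13.2 CPM, against 2.27 to 8.65 CPM in WT). In Gastroc KO columns 2 and 5, at 10.5 and 11.1 CPM, also lay above all WT libraries. So did KO column 3 in TA, at 12.45 CPM. Without columns 0 and 1 the Gastroc log2 change was 0.65 for Trib1 (edgeR adjusted p = 0.0112) and 1.09 for Cebpb (edgeR adjusted p = 0.00930). That fit called 108 genes in all, where the main fit called 23. It kept columns 2 and 5, so it cannot tell these calls apart from the neutrophil markers. In Dia the neutrophil sums were 14.3 to 210 CPM in KO and 30.9 to 274 CPM in WT. In the fit of 48 libraries S100a8 of the neutrophil list, Sdc4 of satellite cells, Cspg4 of pericytes and Des of muscle were higher, and Dcn of fibroblasts and Rgs5 of pericytes lower. That fit called 4.99% of all genes higher and 2.66% lower. None of the tested markers of tendon (6 of 6 tested), Schwann cells (6), erythroid cells (5), liver (5), adipocytes (1), mesothelium (1) or skin (1) was called there, while 3 Schwann markers were higher at an unadjusted p under 0.05. With the correlated block no marker of any list was called. Without KO columns 0 and 1 S100a8 was not called (edgeR adjusted p = 0.0851), but other markers were. The share of all genes called in that fit is not given here, and leaving out these columns raised the calls over all genes within each muscle. Its counts of markers are therefore not read as results about a cell type. That fit called 4 fibroblast markers lower and 1 higher, 4 endothelial markers lower and 3 satellite cell markers higher. It called 3 markers of smooth muscle and pericytes lower and 1 higher, and 2 Schwann markers higher. Mkx of tendon and Fabp4 of adipocytes were higher, and Hba-a1 (erythroid), Alb (liver) and Krt10 (skin) lower. In the muscle and macrophage lists 1 marker each was higher and 1 lower. The part of these cells in the values of the members was not tested.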

How the data were processed

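RNA of 48 libraries was sequenced after oligo dT selection with a stranded kit, per the labels' protocols. The authors deposited 1 table per muscle, aligned to mm10 per the submitters' processing notes, which also name Picard. The deposited values used are counts, unnormalized, of alignments to a gene's exons (per the file headers). The authors' log2 ratios and adjusted p scores (a multiple of −log10) are from DESeq2, per the file headers, and were used only where named. Other columns deposited by the authors give exonic length in base pairs and identifiers of genes set aside. Another 96 columns of the authors' own normalized values were not used.

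Counts were tested with edgeR 4.0.16 in R 4.3.3 (filterByExpr, TMM, quasi-likelihood, Benjamini-Hochberg over all genes, threshold 0.05), per muscle and over 48 libraries with muscle as a term. Scripts were tested on simulated data. CPM use TMM factors per muscle, and log2 CPM a prior count of 2. RPKM use factors over all libraries and the deposited length. Alternatives were RLE and upper-quartile factors, no filter, DESeq2 1.42.0, limma 3.58.1 (voom), 1 fit for all muscles, a 2-fold threshold, column number as a block and leaving out libraries. The other fits of the glucocorticoid list were chosen after its values were seen. Nothing says that libraries of a group came from separate animals, so p-values measure the spread between these libraries. Members and lists were chosen with earlier results of these data known. Values in full were given to members called in a muscle, the 5 with the smallest p per muscle, in the interaction and in Dia against limb, and the leading member per role. From the other lists, genes called in the fit of 48 libraries were named, with examples only from the glucocorticoid list. Genes called without KO columns 0 and 1 were named in part.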

Additional observations from a re-analysis of the deposited data

Results flagged for a closer look

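In 128 groups of 6 libraries (the CPM of 15 members described in full, and the median over all members, in 8 groups) the highest or lowest library was set against the rest by Dixon's ratio. The chance rate of about 1 in 20 holds for independent, normally distributed values. The groups reuse the same 48 libraries, and most hold CPM on a linear scale, so no excess over that rate can be read. The highest or lowest library stood apart in 12 groups. KO column 3 was the high library in 6 of them: Arl4d in Dia (45.7 CPM) and TA (5.43 CPM), Cebpb in Dia (116 CPM) and Gastroc (41.4 CPM), and Nr4a3 in Gastroc (12.04 CPM) and TA (24.6 CPM). Other KO libraries that stood apart were column 1 for Myc in Dia (38.0 CPM, high), column 2 for Tiparp in Gastroc (43.5 CPM, high) and column 5 for Ctgf in Quad (157 CPM, low). In WT they were column 4 for Atf3 in Dia (59.97 CPM, high), column 1 for Nr4a3 in Dia (26.2 CPM, high) and column 1 for Sgk1 in Quad (75.9 CPM, low).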

How the results depend on the processing

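The median log2 change of the members stayed positive in every muscle under all alternatives run. Counts of called members moved, and so did those of all genes called. The main fits called 0, 14, 23 and 1 genes in Quad, TA, Gastroc and Dia. In the same order DESeq2 called 71, 117, 94 and 29 genes, and 1 fit for all muscles 16, 21, 36 and 30. The fits without KO columns 0 and 1 called 133, 219, 108 and 72. The counts of members below are to be read beside these. In Quad, where 0 were called, upper-quartile factors, no filter and voom gave 1 (Btg2), 1 fit for all muscles 2, DESeq2 4 and the fit without KO columns 0 and 1 4, and leaving out 1 library 0 to 1 (1 without KO column 4). In TA, with 0, DESeq2 gave 4, the fit without those columns 3 and leaving out 1 library 0. In Gastroc, with 2, DESeq2 gave 5 and leaving out 1 library 0 to 3. Neither Trib1 nor Cebpb was called without KO column 2 or WT column 2, 3, 4 or 5, and 1 of them was called without KO column 3 or 4 or WT column 0 or 1. In Dia, with 0, voom gave 1, 1 fit for all muscles 5, DESeq2 6, the fit without KO columns 0 and 1 1 and leaving out 1 library 0 to 2 (2 without KO column 4). The 29 calls over 48 libraries became 7 with the correlated block and 2 with summed counts. Between WT muscles a 2-fold threshold left 2 of 26 calls for Dia (Egr3, set aside in the text, is among both counts) and 0 for TA and for Quad against Gastroc. Leaving out 1 column gave 23 to 26, 7 to 13 and 6 to 13 calls there. For Quad against TA it gave 0 to 1 (1 without WT column 4), and DESeq2 gave 1. The shares of all genes called in these other fits between WT muscles are not given here.

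Changes near 0 turned sign. Arl4d in Gastroc (-0.08) had 0.032 without KO columns 0 and 1, and -0.26 to 0.018 without 1 library (above 0 without KO column 2 or WT column 4). Nr4a3 in Dia (0.09) had -0.11 without KO columns 0 and 1, and -0.16 to 0.76 without 1 library (below 0 without KO column 1 or 2 or WT column 0, 2 or 5). The cause was not tested. No paired analysis was possible because the columns carry the numbers 0 to 5, the labels replicate numbers 1 to 6, and nothing ties them, so that the replicate numbers of the labels could not be used. Column number was used as a block in their place: between WT muscles it gave 27 calls for Dia, 14 for TA and 13 for Quad against Gastroc, and 0 for Quad against TA. The shares of all genes called with this block are not given here either. Low counts limit Egr3, Arl4d and Nr4a3.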
